A study of Mus musculus with 12 samples.

Results

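The autophagy genes described here were 10 mouse genes: Sqstm1, Map1lc3a, Map1lc3b, Gabarapl1, Rb1cc1, Ulk1, Becn1, Wipi1, Atg7 and Tfeb. They were chosen by name, and each was taken as the row of the deposited gene table that carries its symbol, so that they make up 10 of 28427 rows. Of the 10 symbols, 9 had a row of their own name, and the row of Tfeb was found under its older symbol Tcfeb. The row of Rb1cc1 also carries the symbol CC1. Expression was measured by RNA sequencing in cultures labelled as mammary epithelial cells of C57BL/6 mice, with no mutation or transgene in the labels. Spheroids, which are cell clusters embedded in the basement membrane gel Matrigel, were set against monolayers grown flat on collagen-coated dishes, each for 96 h or 48 h. Each of the 4 groups held 3 libraries, described as biological replicates, and no source used here says whether they came from separate animals, so the p-values measure the spread between these libraries. The medium of all groups contained prolactin at 1 µg/mL and progesterone at 1 µM, and the gels had their medium renewed after 48 h. The sources used here do not say whether the monolayers had theirs renewed. Culture shape and matrix, and at 96 h possibly medium renewal, changed together, so their parts cannot be told apart.

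Autophagy encloses cytoplasm in a double membrane, the autophagosome, and delivers it to lysosomes for breakdown. The kinase complex built on Ulk1 and Rb1cc1 starts the process, a lipid kinase complex containing Becn1 marks the membrane with a phosphoinositide that Wipi1 binds, and Atg7 activates the small ATG8 proteins (Map1lc3a, Map1lc3b, Gabarapl1) for attachment to that membrane. Sqstm1, also called p62, carries ubiquitin-tagged cargo to the ATG8 proteins and is itself degraded, and Tfeb is a transcription factor for autophagy and lysosomal genes. In the mammary gland, autophagy has been studied in the clearing of cells from the lumen of cultured acini and in involution after lactation. Because Sqstm1 and the ATG8 proteins are consumed by the process, their mRNA levels do not measure its rate.

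Libraries held 7674105 to 13554497 estimated counts. Levels below are CPM, that is, counts divided by library size on a common scale, after scaling by TMM, a method that corrects library sizes for composition, and differences are log2 fold changes from the quasi-likelihood test of edgeR, adjusted after Benjamini and Hochberg over 13951 tested rows, with a threshold of 0.05. All 10 autophagy genes passed the filter on low counts. The 7 epithelial markers summed to 6240 to 6510 CPM in 96 h spheroids and 4090 to 4360 CPM in 96 h monolayers, and to 5890 to 6260 CPM in 48 h spheroids and 9370 to 10800 CPM in 48 h monolayers. That sum is mostly Krt8, Krt18, Epcam and Cdh1, and it hides the basal keratins Krt5 and Krt14, which were 12.9- and 12.3-fold higher in spheroids at 96 h and 2.83- and 2.09-fold higher at 48 h, and which were 7.53- and 6.7-fold lower at 96 h than at 48 h in monolayers. Elf5, a transcription factor of the luminal alveolar lineage, was 23.5-fold higher in spheroids at 96 h and 23-fold higher at 48 h. The 6 fibroblast markers summed to 640 to 694 CPM in 96 h spheroids against 1660 to 2270 CPM in 96 h monolayers, and to 1880 to 2140 CPM in 48 h spheroids against 7550 to 8320 CPM in 48 h monolayers. Col1a1 and Col1a2 make up most of the fibroblast sum, and other members went against it. Pdgfra and Dcn were higher in spheroids at 48 h by 0.95 and 0.85 (log2) and rose in monolayers over time by 1.54 and 1.52, and Col3a1 was higher in spheroids at 96 h by 0.68. These differences of single markers had adjusted p values of 2.57e-05 or lower by edgeR. The sums of the 4 endothelial markers were 5.49 to 6.5 CPM in 96 h spheroids against 53.9 to 56.2 CPM in 96 h monolayers, and 21.5 to 28.1 CPM in 48 h spheroids against 31.1 to 43.8 CPM in 48 h monolayers. The 5 immune markers summed to 6.35 to 7.65 CPM in 96 h spheroids against 22.7 to 32.9 CPM in 96 h monolayers, and to 6.95 to 11 CPM in 48 h spheroids against 4.22 to 6.71 CPM in 48 h monolayers. In 96 h monolayers the macrophage and lysosome gene Cd68 made up most of that sum with a mean of 24.9 CPM, while the pan-leukocyte gene Ptprc had 0 to 4 counts in any library. The sum of the 5 adipocyte markers, nearly all of it Fabp4 and Cd36, was highest in 48 h spheroids at 331 to 380 CPM. Adipoq and Lep had their highest means in 96 h spheroids, at 0.339 and 0.0256 CPM, and 3 of the 5, Adipoq, Plin1 and Lep, had a count of 0 in all 48 h monolayers. In such mixed RNA, fewer cells of a type and less RNA per cell cannot be told apart, and the part of these markers in the differences below was not tested.

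Promoter sequences are shown for the 2 autophagy genes with the largest increases over time in monolayers, Sqstm1 and Gabarapl1, and for Atg7 and Map1lc3b, the ones with an E-box and with an antioxidant element core in the window searched. The sequences are from RefSeq on build GRCm38.p6, each covers 250 bases before to 50 bases after a listed start, and each is written 5′ to 3′ on the gene's strand with the motif found in capitals.
Sqstm1, chr11:50210771-50211070, minus strand, capitals mark the TATA box letters: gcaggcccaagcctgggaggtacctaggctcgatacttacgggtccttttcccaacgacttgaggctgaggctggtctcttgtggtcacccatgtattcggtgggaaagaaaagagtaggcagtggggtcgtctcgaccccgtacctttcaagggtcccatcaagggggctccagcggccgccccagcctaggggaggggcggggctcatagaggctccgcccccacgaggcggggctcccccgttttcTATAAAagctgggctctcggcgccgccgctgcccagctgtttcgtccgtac
Gabarapl1, chr6:129532942-129533241, plus strand, none of the motifs found: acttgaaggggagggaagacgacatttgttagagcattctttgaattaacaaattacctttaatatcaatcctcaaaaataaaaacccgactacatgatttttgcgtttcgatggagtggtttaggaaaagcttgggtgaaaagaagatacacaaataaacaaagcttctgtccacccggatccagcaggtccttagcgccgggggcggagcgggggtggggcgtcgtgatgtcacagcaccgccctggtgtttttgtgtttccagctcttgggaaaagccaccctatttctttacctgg
Atg7, chr6:114670846-114671145, plus strand, capitals mark the E-box: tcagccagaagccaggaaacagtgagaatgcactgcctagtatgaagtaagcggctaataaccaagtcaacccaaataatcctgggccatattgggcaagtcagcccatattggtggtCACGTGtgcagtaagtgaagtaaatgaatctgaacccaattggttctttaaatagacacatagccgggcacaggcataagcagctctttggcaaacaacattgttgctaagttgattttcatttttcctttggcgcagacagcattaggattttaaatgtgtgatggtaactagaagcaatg
Map1lc3b, chr8:121590188-121590487, plus strand, capitals mark the antioxidant element core: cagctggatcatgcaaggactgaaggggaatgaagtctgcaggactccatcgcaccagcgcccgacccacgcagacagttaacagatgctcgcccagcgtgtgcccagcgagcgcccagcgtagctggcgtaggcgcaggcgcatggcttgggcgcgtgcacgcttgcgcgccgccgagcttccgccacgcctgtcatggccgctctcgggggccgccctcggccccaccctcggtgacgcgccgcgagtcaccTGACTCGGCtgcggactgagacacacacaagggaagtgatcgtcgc

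A promoter entry was found for 7 of the 10 autophagy genes, with 3 for Tfeb and 9 windows in all, and 6 motifs were searched on both strands. The E-box CACGTG was found in 1 window, that of Atg7 at 132 bases before a start that lies inside the gene, and in 7.15% of 32851 promoters. Its longer form TCACGTGA, the core to which Tfeb is known to bind, was found in none of the 9 windows and in 0.974% of all promoters, and any match to it also counts as an E-box. The antioxidant element core TGACNNNGC, to which Nrf2 is known to bind, was found in 1 window, that of Map1lc3b from base 5 of the transcript, and in 12.4% of all promoters. The TATA box letters TATAAA stood in the Sqstm1 window, beginning 1 base before the listed start, and in 13.6% of all promoters. The forkhead core GTAAACA (3.65% of all promoters) and the AP-1 core TGACTCA (5.2%) were found in none of the 9 windows. Such matches are descriptions of letters in a window and not of binding.

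Of the 10 autophagy genes, 7 had their highest mean level in 96 h monolayers. The share of all rows highest in that group was not counted. At 96 h, 2 of the 10 were higher and 6 lower in spheroids than in monolayers, with a median log2 fold change of -0.37 against -0.00 for all tested rows, where 73.8% of rows passed the threshold (37.3% higher, 36.5% lower). At 48 h, 3 were higher and 6 lower in spheroids, with a median of -0.22 against 0.05, where 57.9% of rows passed (31.6% higher, 26.4% lower). Between 48 h and 96 h in monolayers, 7 rose and 1 fell, with a median of 0.46 against 0.01, where 61.3% of rows passed (30.1% higher, 31.3% lower). Over the same time in spheroids only Rb1cc1 passed, rising, and the median was 0.08 against 0.01, where 39.8% of rows passed (19.3% higher, 20.5% lower). The spheroid-to-monolayer difference itself changed with time for 6 of the 10, which is the interaction of culture format and time (the difference at 96 h minus that at 48 h), 1 upward and 5 downward, with a median of -0.33 against -0.02, where 53.3% of rows passed (26.9% higher, 26.4% lower).

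**Figure D1:**
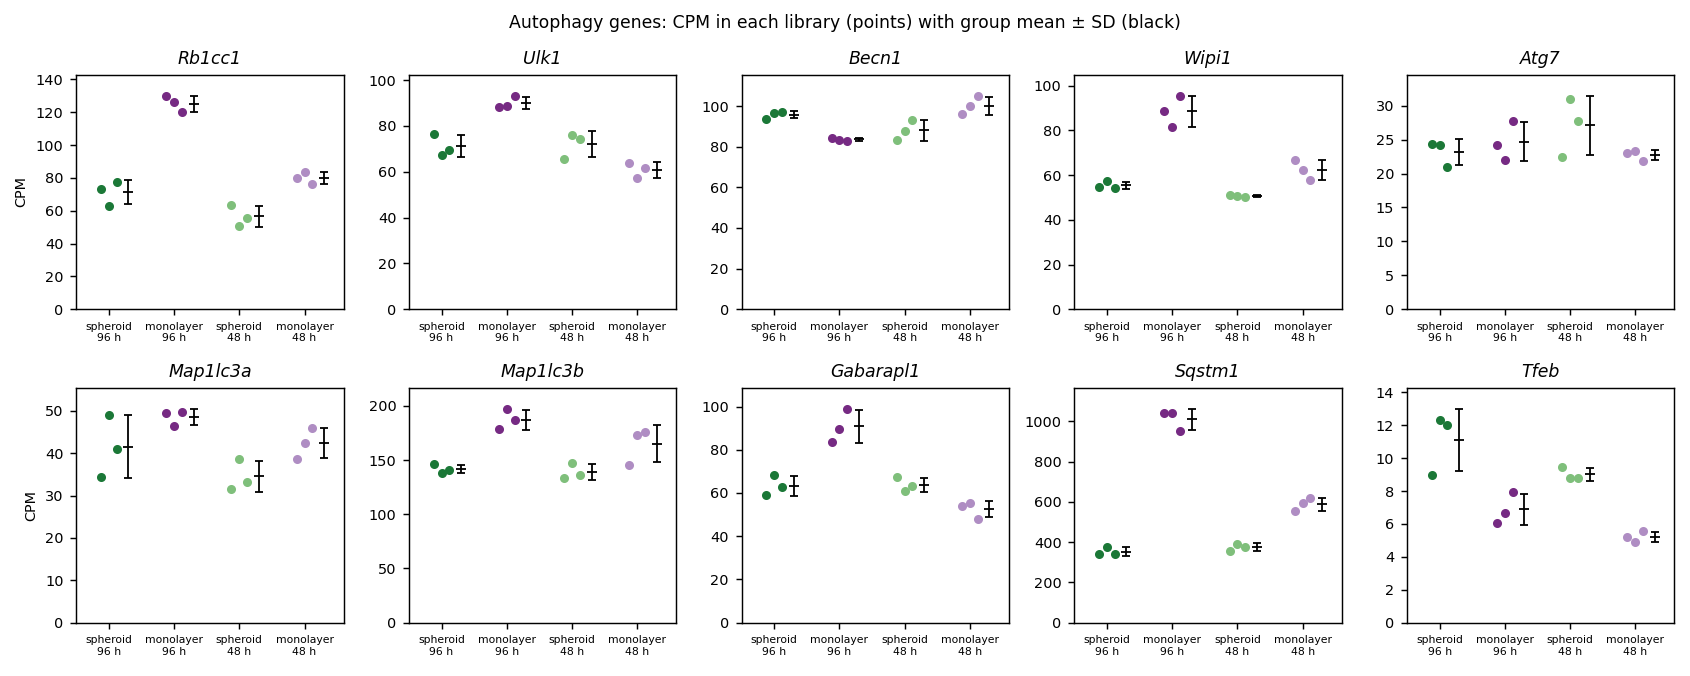
CPM of the 10 autophagy genes (linear axes from 0) in each library of 96 h spheroids, 96 h monolayers, 48 h spheroids and 48 h monolayers, with points for the 3 libraries and black marks for the group mean ± SD. The 96 h monolayers stand highest for 7 genes, among them Sqstm1 at 951 to 1040 CPM, while Tfeb is higher in both spheroid groups and Becn1 is lowest in 96 h monolayers.

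The libraries of 2 groups did not overlap for 8 of the 10 genes between spheroids and monolayers at 96 h (78.9% of all rows) and for 7 at 48 h (60.0% of all rows). They did not overlap for 9 genes between the times in monolayers (63.8% of all rows) and for 2, Becn1 and Wipi1, between the times in spheroids (53.8% of all rows). The comparisons share libraries in pairs, so the values of each are given side by side. The number of the 10 past the threshold in spheroids over time was 1 by the main edgeR fit. It was 2 with no filter on low counts and 2 with the replicate number in the model. In both of these edgeR fits Map1lc3a was added, with adjusted p values of 0.0201 and 0.0448.

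**Figure D2:**
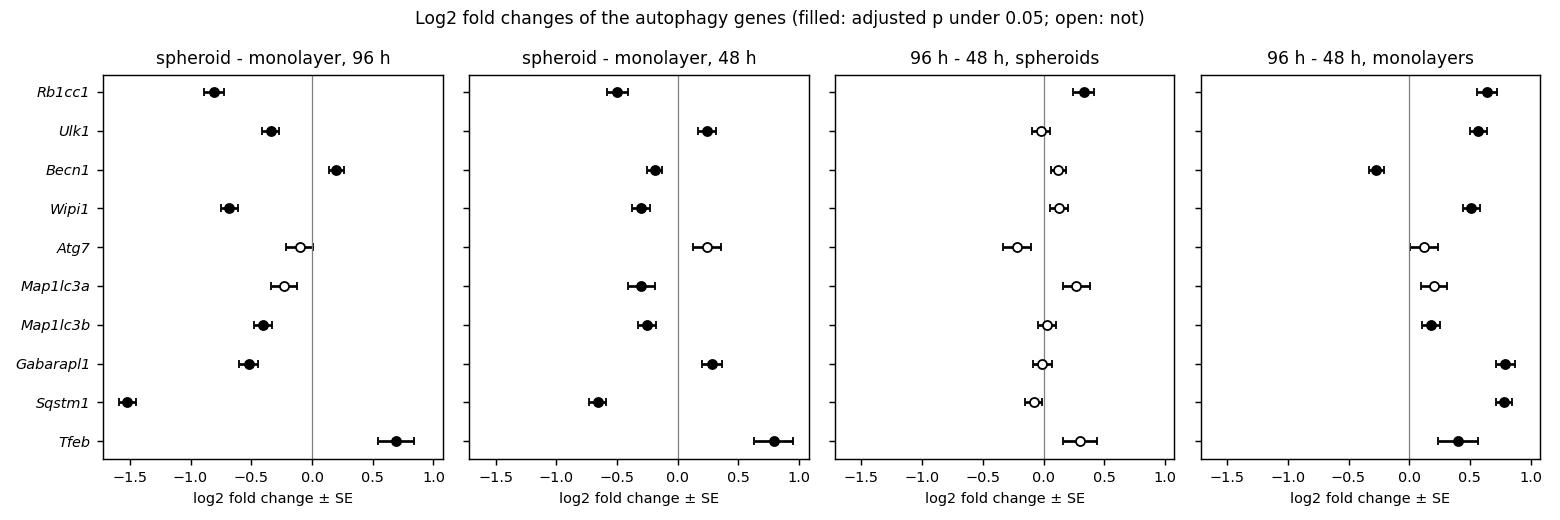
Log2 fold changes ± SE of the 10 autophagy genes (horizontal axis) in 4 comparisons from the edgeR fit, with filled points for an adjusted p under 0.05. The changes in spheroids over time lie near 0 for most genes, whereas 7 genes lie to the right of 0 with filled points in monolayers over time.

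Sqstm1, the cargo receptor, had the largest difference of the 10. Its levels were 341, 377 and 341 CPM in 96 h spheroids, against 1040, 1040 and 951 CPM in 96 h monolayers. At 48 h they were 354, 392 and 375 CPM in spheroids, against 553, 592 and 620 CPM in monolayers. Both spheroid groups lay below both monolayer groups with no overlap, and the 2 spheroid groups overlapped each other. Sqstm1 was lower in spheroids, with a log2 fold change of -1.52 ± 0.0712 at 96 h (SE, 2.86-fold lower, adjusted p = 9.92e-13) and of -0.66 ± 0.0704 at 48 h (adjusted p = 2.25e-07). It rose by 0.78 ± 0.0699 over time in monolayers (adjusted p = 2.76e-08), while in spheroids the difference was -0.08 ± 0.0704 (adjusted p = 0.378). The interaction was -0.86 ± 0.0991 (adjusted p = 9.15e-07). The 4 differences other than that in spheroids over time passed under all alternatives tried, the 96 h one between -1.60 and -1.48. On the deposited FPKM scale, which divides by gene length, Sqstm1 averaged 177 ± 10.8 in 96 h spheroids against 537 ± 30.4 in 96 h monolayers, and 190 ± 10.1 in 48 h spheroids against 278 ± 11 in 48 h monolayers (SD, n = 3 each).

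Rb1cc1, also called FIP200, is the scaffold of the initiation kinase complex. It had 73.3, 63 and 77.4 CPM in 96 h spheroids, against 130, 126 and 120 CPM in 96 h monolayers. At 48 h it had 63.3, 50.7 and 55.7 CPM in spheroids, against 80, 83.6 and 76.6 CPM in monolayers. Spheroids lay below monolayers without overlap at each time. It was lower in spheroids, with -0.81 ± 0.082 at 96 h (adjusted p = 5.7e-08) and -0.50 ± 0.0864 at 48 h (adjusted p = 7.44e-05). It rose over time in both formats, by 0.33 ± 0.0862 in spheroids (adjusted p = 0.00508), whose libraries overlapped between the times at 63 and 63.3 CPM, and by 0.64 ± 0.082 in monolayers (adjusted p = 2.48e-06). The interaction of -0.31 ± 0.119 (adjusted p = 0.0353) was -0.50 with scaling to total counts (adjusted p = 0.00228), and it was -0.29 and did not pass with DESeq2 (adjusted p = 0.0543). The call was also lost on leaving out 1 library at a time, at -0.28 without 48 h monolayer replicate 3, -0.21 without 48 h spheroid replicate 1, -0.31 without 48 h spheroid replicate 3, -0.28 and -0.31 without 96 h monolayer replicates 1 and 2, and -0.22 without 96 h spheroid replicate 2, with adjusted p between 0.0525 and 0.145.

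Ulk1, the initiating kinase, changed sides between the times. It had 76.5, 67.2 and 69.5 CPM in 96 h spheroids, against 88.3, 88.7 and 93.1 CPM in 96 h monolayers. At 48 h it had 65.6, 76 and 74.4 CPM in spheroids, against 63.6, 57.1 and 61.7 CPM in monolayers. The spheroids were the lower group at 96 h and the higher group at 48 h, without overlap at either time. The difference was -0.34 ± 0.0715 at 96 h (adjusted p = 0.000316), 0.24 ± 0.0744 at 48 h (adjusted p = 0.00959) and -0.58 ± 0.103 for the interaction (adjusted p = 0.000122). Ulk1 rose in monolayers by 0.57 ± 0.073 (adjusted p = 2.68e-06), and in spheroids the difference over time was -0.02 ± 0.073 (adjusted p = 0.89). The 48 h difference was 0.19 without 48 h monolayer replicate 2 (adjusted p = 0.0622), 0.20 without 48 h spheroid replicate 2 (adjusted p = 0.0506) and 0.20 when the 48 h groups were fitted alone (adjusted p = 0.0586). On log2 FPKM values with limma the differences were larger, at 0.38 for 48 h and -0.42 for 96 h, but did not pass (adjusted p = 0.0892 and 0.0511), and the FPKM of Ulk1 in the 48 h monolayers spread over 20.3, 12.4 and 10.8.

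Becn1, or Beclin 1, is a core subunit of the lipid kinase complex and moved the other way. It had 93.7, 96.8 and 97 CPM in 96 h spheroids, against 84.5, 83.4 and 82.8 CPM in 96 h monolayers. At 48 h it had 83.2, 87.8 and 93.2 CPM in spheroids, against 96.3, 100 and 105 CPM in monolayers. The spheroids were the higher group at 96 h and the lower group at 48 h, without overlap. The difference was 0.20 ± 0.0609 at 96 h (adjusted p = 0.00714), -0.19 ± 0.0614 at 48 h (adjusted p = 0.0121) and 0.39 ± 0.0865 for the interaction (adjusted p = 0.000992). Becn1 fell in monolayers (-0.27 ± 0.0612, adjusted p = 0.0011), and in spheroids the difference was 0.12 ± 0.0611 (adjusted p = 0.12). With scaling to total counts alone all 4 calls were lost, at 0.12 for 96 h (adjusted p = 0.0843), -0.08 for 48 h (adjusted p = 0.254), -0.09 for monolayers over time (adjusted p = 0.186) and 0.20 for the interaction (adjusted p = 0.0552). The 48 h call was also lost without 48 h spheroid replicate 1, at -0.15 (adjusted p = 0.064), and limma on log2 FPKM gave -0.08 at 48 h (adjusted p = 0.209), -0.11 in monolayers over time (adjusted p = 0.0829) and 0.21 for the interaction (adjusted p = 0.0239).

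Wipi1, which binds the phosphoinositide made by the Becn1 complex, had its groups in the same order as Rb1cc1. It had 54.7, 57.3 and 54.3 CPM in 96 h spheroids, against 88.6, 81.7 and 95.4 CPM in 96 h monolayers. At 48 h it had 51.3, 50.6 and 50.3 CPM in spheroids, against 66.8, 62.2 and 58 CPM in monolayers. The 4 groups did not overlap each other in their order from 96 h monolayers down to 48 h spheroids. Wipi1 was lower in spheroids, with -0.68 ± 0.0696 at 96 h (adjusted p = 6.67e-08) and -0.30 ± 0.073 at 48 h (adjusted p = 0.00197), the second being -0.19 with scaling to total counts (adjusted p = 0.0445). It rose by 0.51 ± 0.0697 in monolayers (adjusted p = 5.36e-06), in spheroids the difference was 0.13 ± 0.0729 (adjusted p = 0.177), and the interaction was -0.38 ± 0.101 (adjusted p = 0.0038).

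Atg7, the activating enzyme of ATG8 and ATG12 conjugation, passed the threshold in none of the 5 comparisons by edgeR. It had 24.4, 24.2 and 20.9 CPM in 96 h spheroids, against 24.2, 22 and 27.8 CPM in 96 h monolayers. After 48 h it had 22.4, 31 and 27.7 CPM in spheroids, against 23, 23.3 and 21.9 CPM in monolayers. All neighbouring groups overlapped, and the highest group mean was 1.19 times the lowest. The differences were -0.10 ± 0.112 at 96 h (adjusted p = 0.437) and 0.24 ± 0.114 at 48 h (adjusted p = 0.0781, unadjusted p = 0.0481), and the interaction was -0.34 ± 0.16 (adjusted p = 0.0817, unadjusted p = 0.0474). Over time the difference was -0.22 ± 0.113 in spheroids (adjusted p = 0.136) and 0.12 ± 0.114 in monolayers (adjusted p = 0.359). The monolayer value was 0.02 without 96 h monolayer replicate 3 (adjusted p = 0.877) and 0.19 without 96 h monolayer replicate 2 (adjusted p = 0.202). The 48 h spheroid replicate 1 was the lowest of its group, and without it Atg7 passed at 48 h with 0.37 (adjusted p = 0.00965), in spheroids over time with -0.34 (adjusted p = 0.0225) and in the interaction with -0.46 (adjusted p = 0.0163). Without 48 h spheroid replicate 2, the highest, the 48 h difference was 0.13 (adjusted p = 0.37), that in spheroids over time -0.10 (adjusted p = 0.532) and the interaction -0.22 (adjusted p = 0.254). Without 96 h spheroid replicate 3 the spheroid value over time was -0.14 (adjusted p = 0.41). With scaling to total counts it passed at 48 h (adjusted p = 0.0143), in monolayers over time (adjusted p = 0.0336) and in the interaction (adjusted p = 0.0108). With limma on log2 FPKM it passed at 48 h (adjusted p = 0.0312) and in the interaction (adjusted p = 0.0261), and with a minimum count of 50 in the interaction (adjusted p = 0.0417).

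Gabarapl1 belongs to the GABARAP branch of the ATG8 proteins, which tag the autophagosome membrane. It had 59.1, 68.2 and 62.6 CPM in 96 h spheroids, against 83.7, 89.8 and 98.8 CPM in 96 h monolayers. In the 48 h cultures it had 67.2, 60.8 and 63.1 CPM in spheroids, against 53.9, 55.3 and 48.1 CPM in monolayers. As with Ulk1, the spheroids were the lower group at 96 h and the higher group at 48 h, without overlap. The difference was -0.52 ± 0.0775 at 96 h (adjusted p = 7.98e-06) and 0.28 ± 0.0815 at 48 h (adjusted p = 0.0064), and the interaction was -0.80 ± 0.112 (adjusted p = 9.97e-06). Gabarapl1 rose in monolayers by 0.79 ± 0.0794 (adjusted p = 1.21e-07), whereas in spheroids the difference was -0.01 ± 0.0797 (adjusted p = 0.928). These 4 calls held under all alternatives tried, with adjusted p up to 0.0361 for the 48 h difference.

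Map1lc3b, whose product LC3B is the usual marker of autophagosomes, had 146, 138 and 141 CPM in 96 h spheroids, against 179, 197 and 187 CPM in 96 h monolayers. The values at 48 h were 133, 147 and 136 CPM in spheroids, against 145, 173 and 176 CPM in monolayers. The groups were apart at 96 h and overlapped at 48 h. Map1lc3b was lower in spheroids, with -0.40 ± 0.0737 at 96 h (adjusted p = 8.8e-05) and -0.25 ± 0.0746 at 48 h (adjusted p = 0.00758). The 48 h difference was -0.14 both with scaling to total counts (adjusted p = 0.0922) and with limma on log2 FPKM (adjusted p = 0.0883). The rise in monolayers over time was 0.18 ± 0.0736 (adjusted p = 0.0419) and was kept under 8 of 20 alternatives. It was 0.09 without 48 h monolayer replicate 1, 0.15 without 96 h monolayer replicate 2, and 0.18 without 96 h monolayer replicate 3, 48 h spheroid replicates 1 or 3, or any single 96 h spheroid replicate, with adjusted p between 0.0517 and 0.239 in these. It was 0.35 with scaling to total counts (adjusted p = 0.000273) and also 0.35 with limma on log2 FPKM (adjusted p = 0.000382). The call was lost at 0.16 with the size factors of DESeq2 in edgeR (adjusted p = 0.0639) and with DESeq2 (adjusted p = 0.0656). It was also lost with no filter (0.17, adjusted p = 0.0669) and with the 2 monolayer groups alone (0.19, adjusted p = 0.0829). In spheroids over time the difference was 0.03 ± 0.0745 (adjusted p = 0.765) and the interaction was -0.15 ± 0.105 (adjusted p = 0.246). The interaction was -0.34 and passed with scaling to total counts (adjusted p = 0.00803) and with limma on log2 FPKM (adjusted p = 0.00731).

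Map1lc3a, a close relative of Map1lc3b, had 34.3, 49.1 and 41 CPM in 96 h spheroids, against 49.4, 46.3 and 49.8 CPM in 96 h monolayers. The 48 h libraries had 31.6, 38.7 and 33.3 CPM in spheroids, against 38.6, 42.5 and 45.9 CPM in monolayers. The 96 h spheroids spread most, and spheroids and monolayers overlapped at both times. Map1lc3a was lower in spheroids at 48 h (-0.30 ± 0.112, adjusted p = 0.0286), a call kept under 14 of 20 alternatives. It was lost without 48 h monolayer replicates 2 or 3 (-0.30 and -0.25) or 48 h spheroid replicates 1 or 3 (-0.24 and -0.28), with adjusted p between 0.0617 and 0.129, and was -0.19 with scaling to total counts (adjusted p = 0.149). At 96 h the difference of -0.23 ± 0.106 did not pass (adjusted p = 0.0583), but passed under 10 of 20 alternatives, with adjusted p between 0.00492 and 0.37 over all 20. It was -0.10 without 96 h spheroid replicate 1 (adjusted p = 0.37), -0.36 without 96 h spheroid replicate 2 (adjusted p = 0.00492), -0.24 without 48 h monolayer replicate 3 (adjusted p = 0.0354), and -0.24 with the replicate number in the model (adjusted p = 0.0266). Over time the difference was 0.27 ± 0.111 in spheroids (adjusted p = 0.0656), which ran from 0.13 to 0.39 on leaving out 1 library. It was 0.13 without 96 h spheroid replicate 2 (adjusted p = 0.359), and passed without 48 h monolayer replicates 1 or 3, 48 h spheroid replicate 2 or 96 h spheroid replicate 1 (adjusted p 0.0493, 0.0443, 0.0342 and 0.00787). It was 0.20 ± 0.107 in monolayers (adjusted p = 0.12) and 0.13 there without 48 h monolayer replicate 1 (adjusted p = 0.332), and it passed with scaling to total counts (adjusted p = 0.00572) and with limma on log2 FPKM (adjusted p = 0.00977). The interaction was 0.07 ± 0.154 (adjusted p = 0.728) and took the other sign with total counts (-0.12), with limma on log2 FPKM (-0.13) and without 96 h spheroid replicate 2 (-0.06).

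The mouse ATG8 family has 2 further genes, Gabarap and Gabarapl2, and the 5 together summed to 493 ± 25.1 FPKM in 96 h spheroids against 527 ± 14.5 in 96 h monolayers, and to 458 ± 10.5 in 48 h spheroids against 480 ± 33.4 in 48 h monolayers (SD, n = 3 each). Gabarap gave the largest share of this FPKM sum in every library. Its share averaged 53.1 ± 0.679% in 96 h spheroids against 44.9 ± 1.23% in 96 h monolayers, with 52.5, 52.9 and 53.8% against 44.6, 43.8 and 46.3% in the libraries. At 48 h it averaged 51.7 ± 1.19% in spheroids against 51 ± 1.61% in monolayers. The shares thus lay apart at 96 h and overlapped at 48 h. Gabarapl1 took 7.64 ± 0.224% in 96 h spheroids against 10.9 ± 0.483% in 96 h monolayers, and 8.52 ± 0.552% in 48 h spheroids against 6.22 ± 0.915% in 48 h monolayers. Map1lc3b took 16.9 ± 1.39% in 96 h spheroids against 22 ± 1.15% in 96 h monolayers, and 17.9 ± 0.499% in spheroids against 18.9 ± 0.534% in monolayers at 48 h. These genes are similar in sequence, so the estimated counts may divide shared reads between them.

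**Figure D3:**
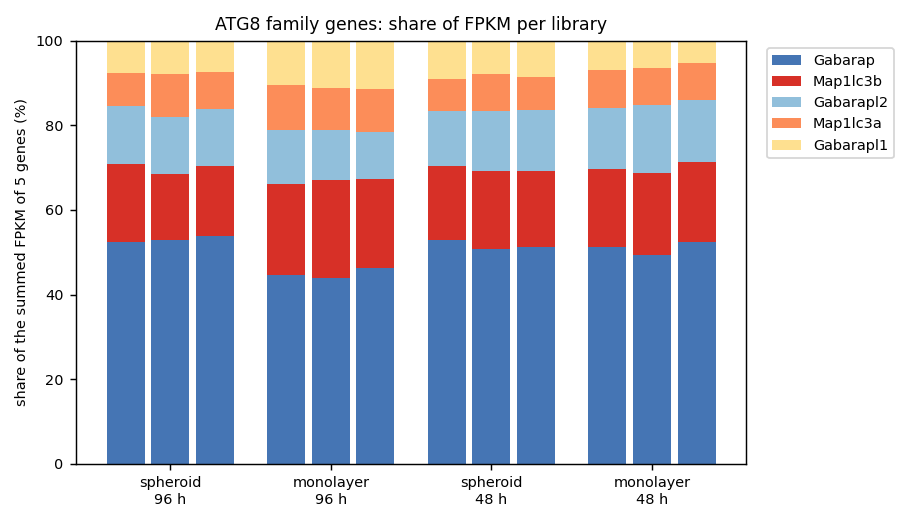
Share (percent) of the summed FPKM of the 5 ATG8 family genes in each of the 12 libraries, as stacked bars that reach 100. In the 96 h monolayers the Gabarap share is 43.8 to 46.3% and the Gabarapl1 and Map1lc3b shares are wider than in the 96 h spheroids.

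By edgeR, Gabarap was higher in spheroids at 96 h by 0.22 ± 0.0747 (adjusted p = 0.0114), with -0.16 ± 0.0749 at 48 h (adjusted p = 0.085) and an interaction of 0.38 ± 0.106 (adjusted p = 0.00566). Gabarapl2 had 0.18 ± 0.0847 at 96 h (adjusted p = 0.0699), was lower in spheroids at 48 h (-0.32 ± 0.0851, adjusted p = 0.00384), fell in monolayers over time (-0.39 ± 0.0847, adjusted p = 0.000597) and had an interaction of 0.49 ± 0.12 (adjusted p = 0.00219), which was 0.30 with scaling to total counts (adjusted p = 0.0391). Both interactions were opposite in sign to that of Gabarapl1. The monolayer change of Gabarapl2 was -0.22 with scaling to total counts (adjusted p = 0.0281). Gabarap was named after its values were seen and was not followed under the alternatives, so how far its calls depend on the scaling is not known. With total counts in place of TMM, the median of all rows moved by -0.078 at 96 h and by -0.188 for the interaction.

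Tfeb was the member with higher levels in spheroids at both times. It had 8.95, 12.3 and 12 CPM in 96 h spheroids, against 6.08, 6.64 and 7.94 CPM in 96 h monolayers. After 48 h it had 9.46, 8.8 and 8.79 CPM in spheroids, against 5.2, 4.89 and 5.55 CPM in monolayers. Spheroids lay above monolayers without overlap at both times, and the 2 spheroid groups overlapped. Tfeb was higher in spheroids by 0.69 ± 0.146 at 96 h (1.61-fold, adjusted p = 0.000364) and by 0.79 ± 0.161 at 48 h (1.73-fold, adjusted p = 0.000347), and both calls held under all alternatives tried. The rise in monolayers of 0.40 ± 0.164 (adjusted p = 0.0417) was kept under 9 of 20 alternatives. It was lost without 96 h monolayer replicates 3 (0.27) or 2 (0.42), 48 h monolayer replicates 1 (0.40) or 2 (0.36), or any single 48 h spheroid replicate (0.40), with adjusted p between 0.05 and 0.202. The call was also lost at 0.38 with the size factors of DESeq2 in edgeR (adjusted p = 0.0526) and with DESeq2 (adjusted p = 0.094). With no filter it was 0.39 (adjusted p = 0.0583) and with the 2 monolayer groups alone 0.41 (adjusted p = 0.0508). In spheroids over time the difference was 0.30 ± 0.143 (adjusted p = 0.111), and it was 0.44 without 96 h spheroid replicate 1 (adjusted p = 0.0227). The interaction was -0.11 ± 0.218 (adjusted p = 0.705), and it took the other sign without 96 h monolayer replicate 3 (0.03) and without 96 h spheroid replicate 1 (0.04). Its row held 53 to 162 counts in a library, the lowest of the 10. Tfeb also had the lowest FPKM of the 10 in every group, at 4.94 ± 0.543 in 96 h spheroids against 3.13 ± 0.384 in 96 h monolayers, and 4.46 ± 1.03 in 48 h spheroids against 2.1 ± 0.14 in 48 h monolayers (SD, n = 3 each).

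Mitf, a relative of Tfeb that binds the same kind of E-box, had 12.8, 12.8 and 13.2 CPM in 96 h spheroids, against 41.8, 43.8 and 48.8 CPM in 96 h monolayers. In the 48 h cultures it had 47.9, 37.1 and 40.9 CPM in spheroids, against 11.4, 11.4 and 9.39 CPM in monolayers. Mitf thus stood high in 48 h spheroids and in 96 h monolayers. The difference was -1.79 ± 0.105 at 96 h (adjusted p = 2.34e-11) and 1.97 ± 0.111 at 48 h (adjusted p = 2.43e-11), with an interaction of -3.76 ± 0.152 (adjusted p = 8.76e-13). Over time Mitf fell by 1.70 in spheroids and rose by 2.06 in monolayers. Tfe3, the third of these relatives, which was named after its values were seen, had 61.1, 59.2 and 57.5 CPM in 96 h spheroids, against 64.8, 61.5 and 66.9 CPM in 96 h monolayers, and its adjusted p lay between 0.0873 and 0.736 over the 5 comparisons by edgeR. Its 96 h difference of -0.12 passed under 5 of 20 alternatives, at -0.20 with scaling to total counts (adjusted p = 0.00891), -0.15 with the size factors of DESeq2 in edgeR (adjusted p = 0.0419), -0.18 with a minimum count of 50 (adjusted p = 0.0125), -0.21 with limma on log2 FPKM (adjusted p = 0.00568) and -0.13 with the 96 h groups alone (adjusted p = 0.0447). Its interaction passed with total counts (-0.23, adjusted p = 0.0422) and with limma (-0.25, adjusted p = 0.0208).

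Known lysosomal targets of Tfeb are given beside it, and whether its mRNA level bears on theirs was not tested. Of 7 such genes, none was higher and 5 were lower in spheroids at 96 h, with a median log2 fold change of -0.57, and at 48 h 2 were higher and none lower, with a median of 0.10. Counted in either direction, 73.8% of all rows passed at 96 h and 57.9% at 48 h, and 5 of 7 and 2 of 7 are no larger shares. By direction, 36.5% of all rows were lower at 96 h, a smaller share than 5 of 7. At 48 h 31.6% of all rows were higher. In monolayers 6 of the 7 rose over time (median 0.58), in spheroids 1 rose and 2 fell (median -0.04), and 6 of the 7 had a negative interaction (median -0.76), where 30.1% of all rows rose in monolayers and 26.4% had a negative interaction. Hexa, a subunit of the lysosomal enzyme hexosaminidase, had the largest difference at 96 h, with 34.6, 32.1 and 39.3 CPM in spheroids against 119, 117 and 114 CPM in monolayers (-1.72 ± 0.0872, adjusted p = 2.99e-12). Ctsd, the protease cathepsin D, was higher in spheroids at 48 h by 1.04 ± 0.0669, with 2720, 2770 and 2640 CPM against 1210, 1370 and 1360 CPM in monolayers. Cd68, itself a lysosomal membrane gene, was highest in the same group as these genes at 96 h, as given above.

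Sqstm1 is also a known target of Nrf2, the regulator of antioxidant genes. All 7 Nrf2 targets listed were higher in spheroids at 48 h (median 2.02), where Sqstm1 was lower, and at 96 h 1 was higher and 4 lower (median -0.29). Of all rows, 31.6% were higher at 48 h. At 96 h 73.8% of all rows passed (37.3% higher, 36.5% lower), and the 5 targets called there are close to that share. All 7 rose over time in monolayers (median 1.36) and fell in spheroids (median -1.44), and all 7 had a negative interaction (median -2.51). Of all rows, 30.1% rose in monolayers, 20.5% fell in spheroids and 26.4% had a negative interaction. Nqo1, a quinone reductase, was higher in spheroids by 2.22 ± 0.0948 at 96 h and by 4.37 ± 0.0936 at 48 h. Hmox1, heme oxygenase, was lower in spheroids at 96 h (-2.97 ± 0.0877), with 173, 170 and 166 CPM against 1420, 1300 and 1260 CPM in monolayers. The targets named have adjusted p values of 1.64e-10 or lower in these comparisons.

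**Figure D4:**
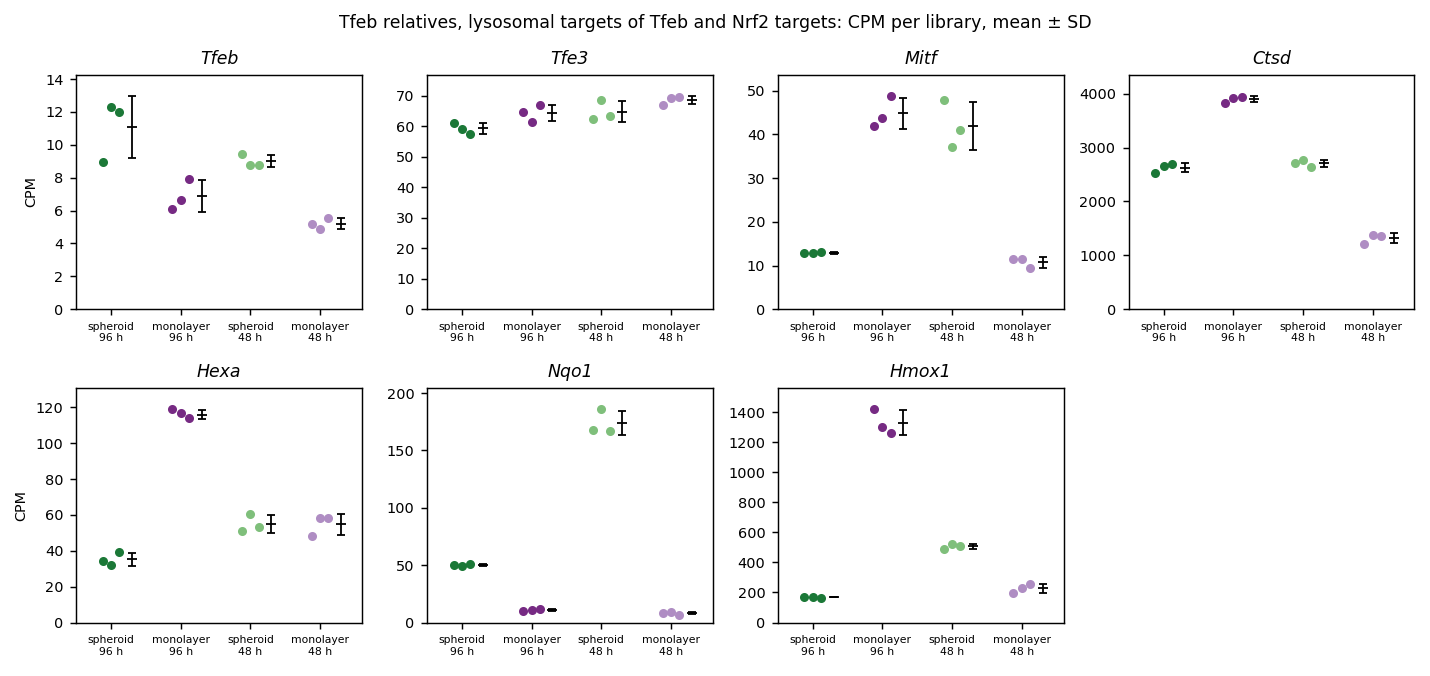
CPM per library (points) with mean ± SD for Tfeb, its relatives Tfe3 and Mitf, the lysosomal targets Ctsd and Hexa, and the Nrf2 targets Nqo1 and Hmox1, on linear axes from 0. Tfeb is higher in both spheroid groups, Mitf is high in 96 h monolayers and 48 h spheroids, and Hexa and Hmox1 are highest in 96 h monolayers.

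Of 74 other autophagy genes, 19 were higher and 36 lower in spheroids at 96 h, with a median of -0.22. The 55 that passed are close to the share of all rows that passed, 73.8% (37.3% higher, 36.5% lower). At 48 h 19 were higher and 21 lower, with a median of -0.03, where 57.9% of all rows passed. Under scaling to total counts these became 28 higher and 16 lower, with a median of 0.08. In monolayers over time 37 rose and 9 fell (median 0.18), where 61.3% of all rows passed (30.1% higher, 31.3% lower). In spheroids 21 rose and 7 fell (median 0.08), where 39.8% of all rows passed. For the interaction 8 were positive and 32 negative (median -0.18), where 53.3% of all rows passed (26.9% higher, 26.4% lower). With total counts 53 rose and 3 fell in monolayers (median 0.35), and 6 were positive and 44 negative for the interaction (median -0.37). All rows moved too under total counts, to medians of 0.159 at 48 h, 0.183 in monolayers and -0.205 for the interaction. Among all rows called with total counts, 65.1%, 66.2% and 34.2% were higher in these 3 comparisons. Thus in this wider list, as among the 10, more genes were lower than higher in spheroids at 96 h and more rose than fell in monolayers. Both lists were chosen with earlier results of these data known and use the same libraries, so this likeness is not independent support.

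Beside the counts by role here and below, 37.3% of all rows were higher and 36.5% lower in spheroids at 96 h. At 48 h 31.6% were higher and 26.4% lower, and in monolayers over time 30.1% rose and 31.3% fell. By role, the other members of the initiation complex, Ulk2, Atg13 and Atg101, had 2 of 3 lower in spheroids at 96 h. Ulk2, the paralog of Ulk1, had 47, 39.7 and 45.2 CPM in 96 h spheroids, against 101, 98.7 and 90 CPM in 96 h monolayers, and differed by -1.13 ± 0.0719 (adjusted p = 7.86e-11). Unlike Ulk1 it was lower in spheroids at 48 h too (-0.75 ± 0.0769, adjusted p = 1.11e-07). Of 7 partners of Becn1 in the lipid kinase complex, 2 were higher and 3 lower in spheroids at 96 h, and 5 rose and none fell in monolayers over time. Rubcn, an inhibitor of that complex, fell by 0.35 in spheroids over time. Of 10 genes for membrane supply and phosphoinositide binding, 1 was higher and 6 lower in spheroids at 96 h, and 2 higher and 6 lower at 48 h. Atg9b, a transmembrane protein of the early membrane, was lower in spheroids at 48 h (-0.79), and Atg2a, a lipid transfer protein, fell by 0.26 in spheroids over time, a change of -0.23 without 96 h spheroid replicate 3 (adjusted p = 0.0508).

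The conjugation genes beside Atg7 had 3 of 10 higher and 4 lower in spheroids at 96 h, and 1 higher and 1 lower at 48 h. Of all rows, 73.8% passed at 96 h and 57.9% at 48 h, so neither count is a larger share. Atg4a, a protease that trims ATG8 proteins, had 18.2, 19.7 and 18.8 CPM in 96 h spheroids, against 9.84, 9.14 and 8.11 CPM in 96 h monolayers (1.06 ± 0.114, adjusted p = 1.29e-07). It fell by 0.40 in monolayers over time, and its relative Atg4d fell by 0.39. The Atg4a change was -0.31 without 48 h monolayer replicate 2 (adjusted p = 0.0586), and that of Atg4d was -0.32 without 48 h monolayer replicate 3 (adjusted p = 0.0631) and -0.25 without 96 h monolayer replicate 2 (adjusted p = 0.082). With scaling to total counts neither passed (adjusted p = 0.111 for Atg4a and 0.164 for Atg4d).

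Among 13 cargo receptors other than Sqstm1, 4 were higher and 8 lower in spheroids at 96 h, and 8 rose and 2 fell in monolayers over time. Of all rows, 37.3% were higher and 36.5% lower at 96 h, and 30.1% rose and 31.3% fell in monolayers. Bnip3, a receptor for mitochondria, had 51.4, 55.4 and 52.2 CPM in 96 h spheroids, against 228, 240 and 248 CPM in 96 h monolayers (-2.17 ± 0.0822, adjusted p = 4.52e-14). The values at 48 h were 107, 101 and 106 CPM in spheroids, against 168, 215 and 204 CPM in monolayers (-0.90 ± 0.0792, adjusted p = 1.4e-08). Bnip3 was the lowest in 96 h spheroids, and it fell by 0.98 in spheroids over time. Ccpg1, a receptor for endoplasmic reticulum, rose in monolayers over time by 1.25 and in spheroids by 0.50, and Calcoco1, another such receptor, rose in spheroids by 0.64. Phb2, a mitochondrial receptor, was higher in spheroids at 96 h by 1.05 and fell by 0.66 in monolayers over time. Optn, a receptor for ubiquitin-tagged cargo like Sqstm1, had 49.8, 45.3 and 48.8 CPM in 96 h spheroids, against 26.2, 27.9 and 31.6 CPM in 96 h monolayers, and its interaction of 0.86 ± 0.115 (adjusted p = 6.05e-06) had the opposite sign to that of Sqstm1.

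Of 13 genes for fusion with lysosomes, 4 were higher and 6 lower in spheroids at 96 h, and 4 were higher and 4 lower at 48 h. Those counts are close to the shares of all rows that passed. These were 73.8% at 96 h (37.3% higher, 36.5% lower) and 57.9% at 48 h (31.6% higher, 26.4% lower). Tecpr1, a tether between autophagosome and lysosome, had 17.5, 18.4 and 18.2 CPM in 96 h spheroids, against 49, 48.1 and 45.6 CPM in 96 h monolayers (-1.40 ± 0.112, adjusted p = 2.26e-09). It rose in monolayers over time by 0.93. Vamp8, a fusion protein of the SNARE family, had a positive interaction of 0.53 ± 0.135 (adjusted p = 0.00284), which was 0.34 with scaling to total counts (adjusted p = 0.0331). Of 11 nutrient signalling genes, 3 were higher and 4 lower in spheroids at 96 h, and 5 higher and 3 lower at 48 h. Prkab1, a subunit of the energy sensor AMPK, was higher in spheroids by 1.01 at 96 h and 1.43 at 48 h, and Mlst8, a subunit of the mTOR complexes, by 0.76 at 96 h and 0.68 at 48 h. Ddit4 and Sesn2, both inhibitors of mTOR complex 1, were lower in spheroids at 48 h (-1.18 and -0.90) and rose in spheroids over time by 0.60 and 0.62. Foxo3, a forkhead factor known to switch on autophagy genes, was higher in spheroids at 48 h by 0.89 and rose in monolayers over time by 0.93. Of the 5 transcription factors beside Tfeb, 1 was higher and 3 lower in spheroids at 96 h, and 4 rose and none fell in monolayers over time. In monolayers 30.1% of all rows rose and 31.3% fell.

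**Figure D5:**
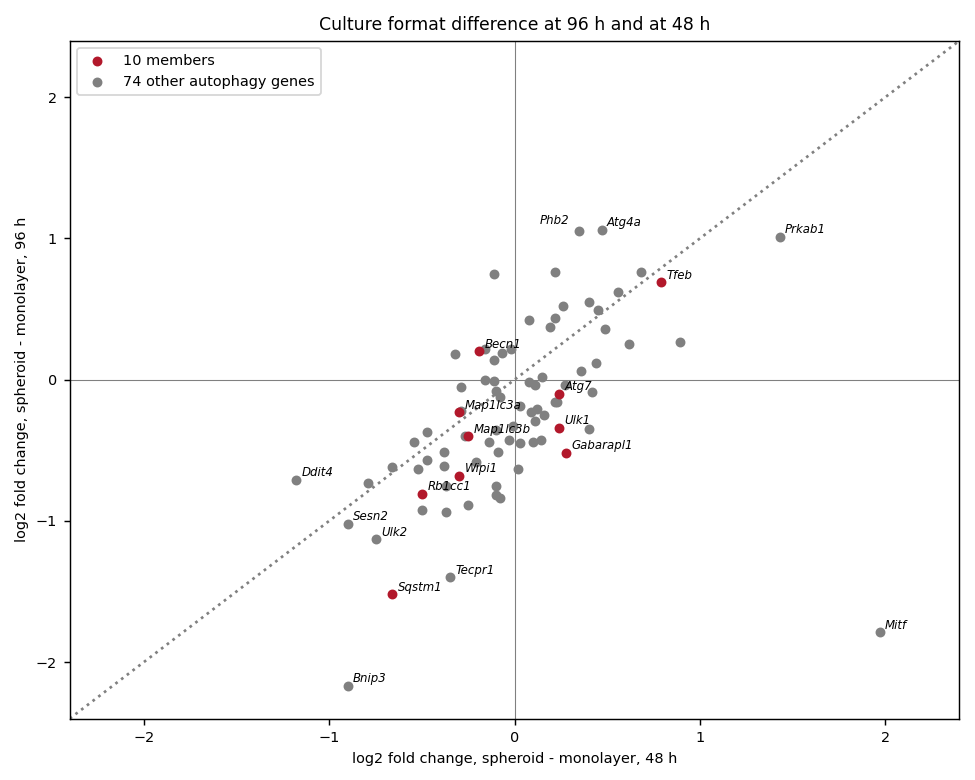
Log2 fold change of spheroids over monolayers at 96 h (vertical) against that at 48 h (horizontal) for the 10 autophagy genes (red) and 74 other autophagy genes (grey), with the dotted line of equal values. Sqstm1 lies far below the line at -1.52 and -0.66, Ulk1 and Gabarapl1 lie at the lower right, and Becn1 lies at the upper left. The 2 axes use different libraries.

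The scaling moved the median log2 fold change of all rows by 0.109 at 48 h, 0.171 in monolayers over time and -0.188 for the interaction when total counts replaced TMM. With total counts the 10 genes counted 1 higher and 7 lower at 96 h, 4 higher and 3 lower at 48 h, 9 risen and none fallen in monolayers, 1 risen in spheroids, and none positive and 7 negative for the interaction. Among all rows called, the share that was higher was 54.5% at 48 h, 49% in monolayers over time and 50.5% for the interaction, against 65.1%, 66.2% and 34.2% with total counts. At 96 h it was 50.6%, against 45.7% with total counts.

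Set side by side per gene length, Sqstm1 had the highest FPKM of the 10 in every group and Map1lc3b the second highest, at 83 ± 2.52 in 96 h spheroids against 116 ± 3.81 in 96 h monolayers, and 82.2 ± 4.16 in 48 h spheroids against 90.6 ± 8.11 in 48 h monolayers (SD, n = 3 each). Atg7 lay among the low ones, with 7.48 ± 0.667 in 96 h spheroids against 8.42 ± 0.975 in 96 h monolayers, and 8.82 ± 1.41 in 48 h spheroids against 6.91 ± 0.315 in 48 h monolayers. The ratio of the highest to the lowest group mean in CPM was 2.86 for Sqstm1, 2.21 for Rb1cc1, 2.13 for Tfeb and 1.75 for Wipi1. These 4 had the widest range on the log2 scale, and the ratio of the others ran from 1.19 for Atg7 to 1.73 for Gabarapl1.

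For these 4, the tested rows with the most similar pattern were named by Pearson's r of log2 CPM over the 12 libraries, which share the 4 groups and so are not independent points. For Sqstm1 they were Arsa, a lysosomal sulfatase (r = 0.996), Tspan7 (0.994) and Adssl1 (0.993). For Rb1cc1 they were Zmym2 (r = 0.995), Fam199x (0.993) and a row shared by Ufl1 and 1810074P20Rik (0.985). For Tfeb they were the aldehyde dehydrogenases Aldh2 (r = 0.961) and Aldh5a1 (0.960) and the transcriptional coregulator Cited4 (0.952). For Wipi1 they were Mnt (r = 0.986), Usp42 (0.985) and Col18a1 (0.983). On log2 FPKM values 2 of the 3 for Sqstm1, 2 for Rb1cc1 and 2 for Wipi1 were again among the 3 most similar, and none of the 3 for Tfeb.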

How the data were processed

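Mouse RNA libraries (12, in 4 groups of 3) were compared. The authors deposited expected counts per gene, estimated with RSEM 1.2.30 and already rounded to whole numbers, per the submitters' processing notes and the values, after bcl2fastq 2.15.0 and Bowtie 1.0.1 on build mm9. FPKM levels were taken back from a second deposited table of log2(FPKM + 1). The sources used here do not give the strand setting.

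Counts were tested in R 4.3.3 with edgeR 4.0.16 (filterByExpr with minimum count 10 and minimum total 15, TMM scaling, quasi-likelihood fit with group as the only term on all 12 libraries, 2-sided). SE is the size of the log2 fold change divided by the square root of F. The fit was tested on simulated data. Alternatives used other scalings and filters, DESeq2 1.42.0, limma 3.58.1 on log2 FPKM, the replicate number as a block, only the 2 groups of a comparison, and leaving out each library. Replicates of a group differed beyond counting noise, and unevenly between groups. The chi-square of the counts per degree of freedom was 5.15 to 18.3 between pairs of 48 h monolayers and 3.62 to 6.91 in 96 h monolayers. In spheroids it was 2.49 to 5.02 at 48 h and 2.48 to 3.13 at 96 h. The main fit used a spread shared by all groups.

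The genes and lists were chosen with earlier results of these data known. Named beside the 10 members were, of 74 other autophagy genes, the 4 largest passing changes in each direction per comparison with groups apart, the 3 rows most like each of the 4 most variable members, and the largest change in each direction of the Tfeb and Nrf2 target lists. Lists of epithelial, fibroblast, endothelial, immune and adipocyte markers gave summed levels. A gene of the Tfeb list is not reported here. Of all rows, 2093 carry more than 1 symbol. Promoters are RefSeq entries of GRCm38.p6.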

Additional observations from a re-analysis of the deposited data

Results flagged for a closer look

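Of 34 named genes, 25 had a spheroid-to-monolayer difference that changed between 48 h and 96 h by the interaction test of edgeR (log2, the difference at 96 h minus that at 48 h). Of all rows 53.3% passed that test. The 34 are the 10 members and the genes named by rule from the wider autophagy, Tfeb target and Nrf2 target lists. They leave out Gabarap, whose interaction also passed as given above, and Tfe3, both named after their values were seen. The genes besides the 10 members were named for large passing changes, some of them in this interaction, so the choice itself raises the count of 25. Among the 10 autophagy genes those that passed were Sqstm1 (-0.86), Gabarapl1 (-0.80), Ulk1 (-0.58), Wipi1 (-0.38), Rb1cc1 (-0.31) and Becn1 (0.39). For Ulk1, Gabarapl1 and Becn1 the difference had opposite signs at the 2 times. Among other autophagy genes the negative values were those of Mitf (-3.76), Bnip3 (-1.27), Tecpr1 (-1.05), Ccpg1 (-0.75), Foxo3 (-0.61), Atg2a (-0.48), Prkab1 (-0.42), Ulk2 (-0.38) and Rubcn (-0.32). That of Rubcn was -0.51 with total counts (adjusted p = 0.00221) and -0.52 with limma on log2 FPKM (adjusted p = 0.00254), and did not pass with DESeq2 (-0.30, adjusted p = 0.065), with no filter (-0.29, adjusted p = 0.0543) and without 48 h monolayer replicate 3, 48 h spheroid replicates 1 or 3, 96 h monolayer replicates 1 or 2 or 96 h spheroid replicate 2 (-0.32 to -0.22, adjusted p between 0.0513 and 0.086). The positive ones were those of Optn (0.86), Phb2 (0.70), Atg4a (0.60), Vamp8 (0.53), Gabarapl2 (0.49) and Ddit4 (0.47). That of Ddit4 was 0.29 with total counts (adjusted p = 0.0487) and 0.28 with limma on log2 FPKM, where it did not pass (adjusted p = 0.0541). With limma Atg4a was 0.34, Vamp8 0.33 and Gabarapl2 0.29, and with total counts Vamp8 was 0.34 and Gabarapl2 0.30, all still passing (adjusted p up to 0.0466). The lysosomal targets Hexa (-1.72) and Ctsd (-1.61) and the Nrf2 targets Hmox1 (-4.13) and Nqo1 (-2.15) also differed. No cause was tested.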

How the results depend on the processing

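Over the 10 autophagy genes, 896 of 990 values under alternatives kept their direction and their side of the threshold, 50 lost the call, 30 gained one and 14 changed sign, and over the other named genes 1171 of 1200 kept both. Most of those other values were picked as large passing changes, so that they kept both was likely beforehand. The values that changed sign were near 0. On leaving out 1 library at a time, Atg7 at 96 h ran from -0.17 to 0.00, Ulk1 in spheroids over time from -0.08 to 0.03, Gabarapl1 in spheroids over time from -0.06 to 0.04, and the interactions of Map1lc3a from -0.06 to 0.20, of Tfeb from -0.20 to 0.04 and of Tfe3 from -0.07 to 0.01. Gabarapl1 in spheroids over time was 0.00 with no filter. The Map1lc3a interaction was -0.12 with total counts and -0.13 with limma on log2 FPKM, and Tfe3 was 0.03 and 0.04 under these at 48 h and 0.08 and 0.11 in monolayers over time. The cause was not tested.

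Of the counts, that of autophagy genes called in spheroids over time was 1, 2 with no filter and 2 with the replicate block, and lay between 1 and 3 on leaving out 1 library. Same-numbered libraries of different groups had deviations correlated between -0.11 and 0.088 (18 pairs), and differently numbered ones between -0.117 and 0.118 (36 pairs). Same-numbered libraries thus deviated together no more than others, which does not tell whether they shared an animal or a day. With the replicate block, 10287 rows were called at 96 h, 8110 at 48 h, 8537 in monolayers, 5501 in spheroids and 7417 for the interaction, each within 1.5 times the count without it. Of the 3 rows most like Tfeb, 0 stayed among the 3 on log2 FPKM. Depth limits Tfeb most, since its counts are the lowest of the 10.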
